A study of Rattus norvegicus with 10 samples.

Results

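The transcripts described here were measured in the rat choroid plexus, the secretory epithelium that folds into the brain ventricles and produces cerebrospinal fluid. They were chosen by gene symbol, mainly from families of enzymes and carrier proteins that detoxify superoxide, peroxides and electrophiles. Not all have that role, since TXNL4A is a component of the spliceosome and TXNIP inhibits thioredoxin. The set was the genes in the symbol columns of the study's gene tables whose symbol begins with PRDX, GPX, GST, MGST, TXN, SOD, SELEN, NQO or MSR, together with CAT, GSR, GSS, GCLC, GCLM, HMOX1, HMOX2, PARK7 and GLRX. The rule found 33 of the 32883 genes listed for each rat. The copy of the gene table used here was shortened to its most abundant genes, and it named 2015 identifiers, so that the 33 are the abundant members of these families. The symbols CAT, GCLC, GCLM, GSR, GSS, HMOX1 and HMOX2 of the rule were not in it and were not analysed here, nor was any NQO or MGST gene.

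RNA came from female Wistar rats aged 27 weeks, 5 fed a control diet matched for its nutrient sources and 5 fed a high fat diet (HFD), with the plexus of 1 rat in each library. The study took rats for its experiments by body weight, lighter ones from the control diet and heavier ones from the HFD, so that the groups differ in selected body weight as well as in diet. The question was whether the HFD alters the transcripts of the plexus.

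Superoxide dismutases turn superoxide into hydrogen peroxide, which peroxiredoxins and glutathione peroxidases then reduce to water. Peroxiredoxins are regenerated by thioredoxin and glutathione peroxidases by glutathione, while glutathione transferases attach glutathione to reactive electrophiles. Selenoproteins carry selenocysteine, and several of them work on oxidised proteins or lipids. The plexus stands between blood and cerebrospinal fluid, and its epithelium is rich in mitochondria and in conjugating enzymes.

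The expression values were TPM, a measure per transcript length that sums to 1000000 in each rat and holds no read number, so the depth behind each value is unknown. For each rat, TPM were divided by the median over genes of its ratio to the 10-rat mean, and the result is called rescaled TPM. Differences are given as HFD minus control on the log2(rescaled TPM + 0.1) scale. Control rat 1 was unlike the rest. The divisor was 0.749 in this rat and 0.945 to 1.13 in the others, and 1741 of its genes departed more than 2-fold from the remaining rats' median, while 106 to 157 genes did so in each of the other rats. All 10 epithelial markers listed were expressed, from OTX2 with the lowest mean to transthyretin (TTR), which made up 32.2% to 39.7% of the deposited TPM. Haemoglobin, macrophage, endothelial, mural and stromal markers were also present and none was at 0. All markers were named through the shortened gene table of abundant genes, so their presence was fixed by it and is no check of the tissue. The samples were excised plexus, in which fewer cells of a type and less RNA per cell cannot be told apart.

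The 33 transcripts were abundant. The shortened gene table held only its most abundant genes, so this was fixed by the selection and is no result about these families. The mean rescaled TPM of the 33 ran from 48.1 for SELENOM to 1409 for GPX4, and 22 of the 33 stood at 100 or above. GPX4 ranked 48th, the glutathione transferase GSTA1 59th and the superoxide dismutase SOD1 67th among all genes. Summed, the 33 genes made up 0.864% to 1.08% of the deposited TPM of a rat, with the lowest share in control rat 1 and the highest in control rat 2.

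None of the 33 genes passed the test for a difference between the diets. With limma and Benjamini-Hochberg adjustment over the 12198 genes tested, 0 of the 33 had an adjusted p under 0.05, as did 0.0% of all tested genes, and the lowest adjusted p among the 33 was 0.540. An unadjusted p under 0.05 was found in 4 genes, the peroxiredoxin PRDX5, SOD1, the spliceosomal thioredoxin-like protein TXNL4A and the mitochondrial thioredoxin TXN2, and all 4 had lower means in HFD-fed rats. The background is 4.84% of all tested genes lower on the HFD at that p, 3.78% higher and 8.62% in either direction. Among the 1925 tested genes at least as abundant as SELENOM, 13.0% were lower at that p, 1.19% higher and 14.2% either. The 4 of 33, or 12.1%, lie near the share of equally abundant genes and are no result about the antioxidant genes. The exact permutation test, two-sided over 252 assignments of rats to diets, gave a p under 0.05 in 6 genes with lower and 1 gene with higher means on the HFD, against 17.9% and 1.82% of equally abundant genes and 6.55% and 5.85% of all tested genes. The smallest p this test can give is 0.00794.

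Most of the 33 differences were below 0, as were those of equally abundant genes. The difference was below 0 in 25 genes and above 0 in 8, with a median of -0.10. It was below 0 in 75.8% of the 33, in 69.6% of equally abundant genes, whose median was -0.08, and in 47.1% of all tested genes, whose median was 0.01. With TPM as deposited, the split was 15 below and 18 above, the median of the 33 was 0.003, and the median of all tested genes was 0.11. PRDX5, SOD1 and TXNL4A then had an unadjusted p under 0.05 with lower means on the HFD, against 1.26% of all tested genes and 3.95% of equally abundant genes lower and 3.84% and 1.35% higher. With array weights, which give less weight to rats that stand apart, 10 of the 33 were lower at that p, against 8.21% of all tested and 21.9% of equally abundant genes lower and 7.18% and 2.6% higher. The range of the 33 differences was -0.45 to 0.30. The standard errors (SE) ran from 0.059 to 0.215, and in 21 genes the 95% interval reached beyond a difference of 0.3 in at least 1 direction.

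**Figure D1:**
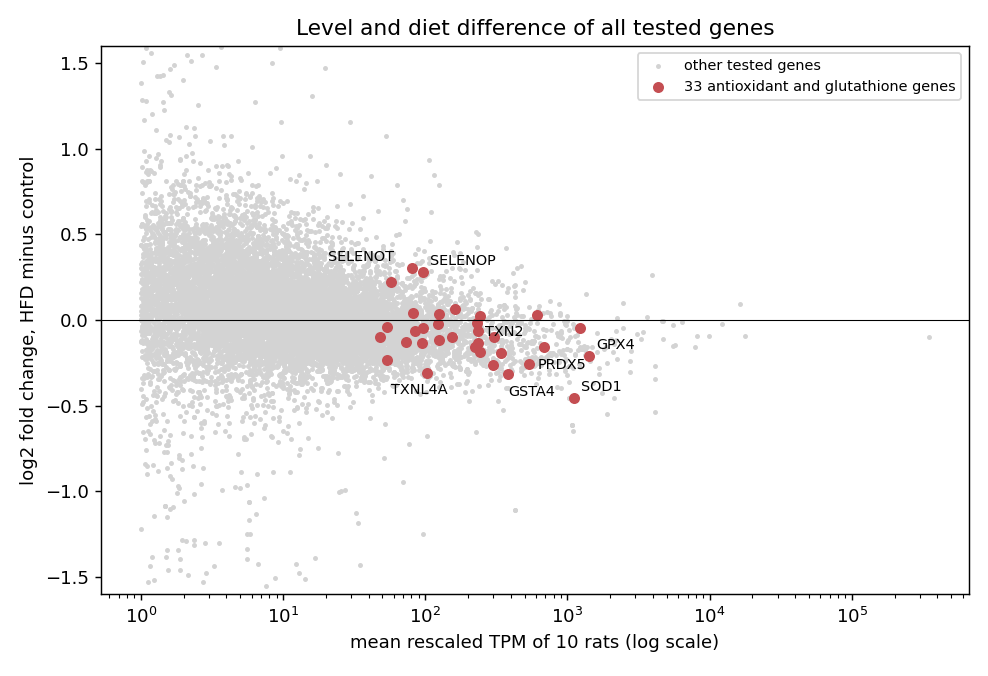
Mean rescaled TPM of the 10 rats on a log axis against the log2 fold change, HFD minus control, for the 12198 tested genes in grey and the 33 antioxidant and glutathione genes in red. The red points lie on the abundant side, 25 below and 8 above the 0 line, within the spread of the grey points there, and 50 genes with a change beyond 1.6 in either direction are not drawn.

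The summed rescaled TPM of the 3 superoxide dismutases had a ratio of HFD to control of 0.797, the lowest of the 7 roles, and SOD1 made up most of the sum. SOD1 (ENSRNOG00000002115) is the copper-zinc enzyme of the cytosol. Its rescaled TPM were 1341, 1100.2, 1276, 1343 and 1287 in control rats 1 to 5 and 721, 1295, 1208, 780.4 and 765 in HFD-fed rats 1 to 5. HFD-fed rats 1, 4 and 5 lay below every control rat, while HFD-fed rats 2 and 3 lay inside the control range, so the groups overlapped. The means were 1269 ± 99.4 on control and 954 ± 274 on the HFD (SD, n = 5 each), a difference of -0.45 with an SE of 0.17, an unadjusted limma p of 0.022 and an adjusted p of 0.540. The exact permutation p was 0.0714. The unadjusted p was no longer under 0.05 without HFD-fed rat 1, 4 or 5, with a highest value of 0.0573.

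The same 3 HFD-fed rats differed from the other HFD-fed rats in how much of the total superoxide dismutase transcript was SOD1. The share was 63.4%, 65.3% and 65.3% in HFD-fed rats 1, 4 and 5, 75.5% and 75.7% in HFD-fed rats 2 and 3, and 70.1% to 76.9% in the control rats. HFD-fed rats 1, 4 and 5 also had TTR at 32.2%, 33.1% and 32.5% of the deposited TPM against 36.0% and 38.2% in HFD-fed rats 2 and 3, and mean effective transcript lengths of 934, 947 and 968 bases against 883 and 874. Control rats 2 to 5 had TTR at 32.2% to 34.2% with SOD1 at 1100.2 to 1343, and their mean lengths were 905 to 918 bases. Control rat 1 had the highest TTR share of all rats, 39.7%, and the shortest mean length, 789 bases, with SOD1 at 1341. The part of these values in the SOD1 levels was not tested.

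The other superoxide dismutases did not show such a split. SOD2, the manganese enzyme of the mitochondrial matrix, had means of 124 ± 19.7 on control and 121 ± 5.34 on the HFD (difference -0.02, SE 0.11). Control rat 1 was at 89.2 for SOD2 against 128 to 135 in the other control rats, and without it the difference was -0.14 with an unadjusted limma p of 0.0127. SOD3, the secreted enzyme bound to the extracellular matrix, had means of 317 ± 93.8 and 288 ± 9.77 (difference -0.10, SE 0.15). Control rat 1 was at 483 for SOD3, above the 256 to 299 of the other control rats, and without it the difference was 0.07. The direction of both differences changed with TPM as deposited, to 0.08 for SOD2 and 0.01 for SOD3.

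**Figure D2:**
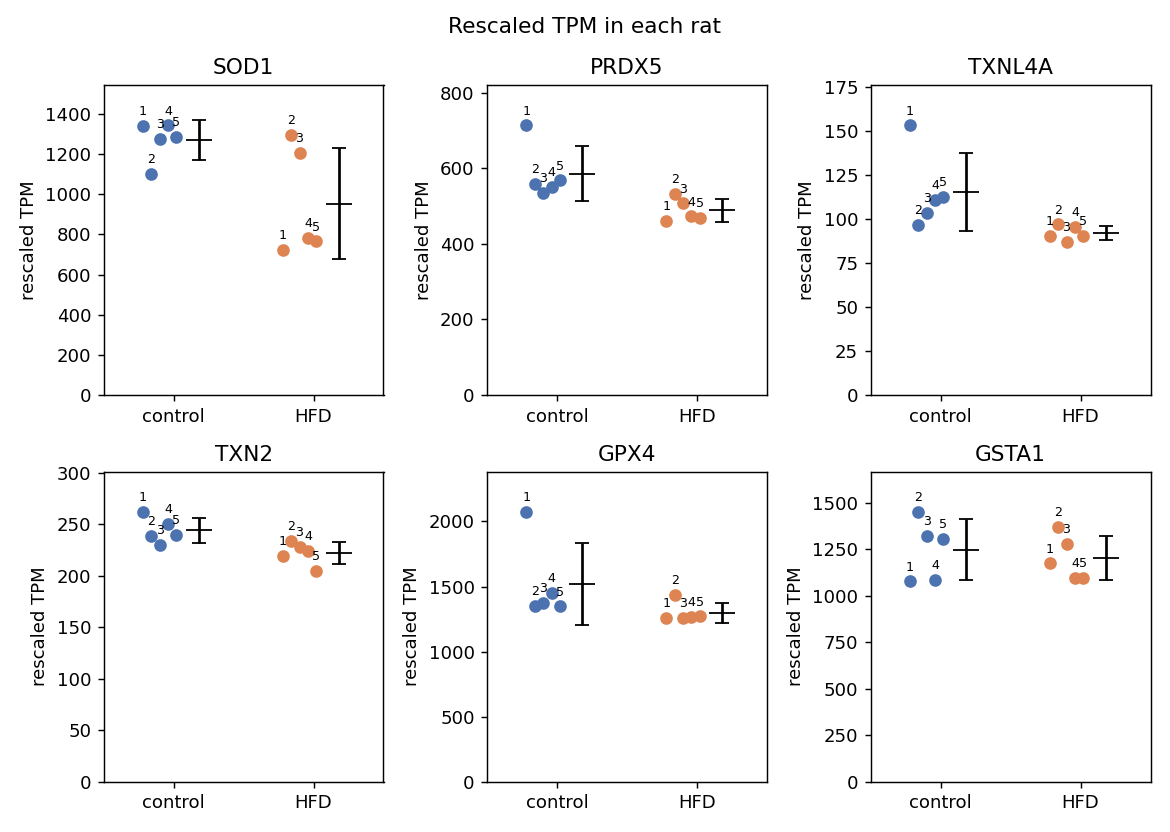
Rescaled TPM of single rats on each diet for selected antioxidant and glutathione genes, with the mean and SD of each group. SOD1 falls into 3 HFD-fed rats at 721 to 780.4 and 2 at 1208 and 1295, and every HFD-fed rat lies below every control rat for PRDX5.

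Glutathione peroxidases were led by GPX4, the selenoenzyme that reduces lipid hydroperoxides within membranes. GPX4 (ENSRNOG00000013604) was at 2072, 1350.2, 1376, 1454 and 1347 in control rats 1 to 5 and at 1259, 1438, 1260.1, 1265 and 1269.7 in HFD-fed rats 1 to 5. Control rat 1 was far above all others, and HFD-fed rat 2 lay inside the range of the control rats, while the other 4 HFD-fed rats lay below every control rat. The means were 1519.8 ± 312 and 1298 ± 78.2 (difference -0.21, SE 0.12, unadjusted limma p 0.108, adjusted p 0.579, exact permutation p 0.0476), and the difference was -0.09 without control rat 1. GPX4 made up 58.5% to 68.9% of the summed glutathione peroxidase transcript in control rats and 60.3% to 63.5% in HFD-fed rats. GPX1, the cytosolic selenoenzyme that reduces hydrogen peroxide, had means of 722 ± 60.6 and 647 ± 61.5 (difference -0.16, SE 0.084). GPX8, an enzyme of the endoplasmic reticulum, had means of 157 ± 9.97 and 165 ± 17.3 (difference 0.06, SE 0.083).

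Among peroxiredoxins, PRDX5 was the one whose groups did not overlap. PRDX5 (ENSRNOG00000021125) is a peroxiredoxin of mitochondria, peroxisomes and cytosol. Its rescaled TPM were 714, 560, 535, 551 and 568 in control rats 1 to 5 and 461, 532, 507, 473 and 469 in HFD-fed rats 1 to 5. Every HFD-fed rat lay below every control rat, by a margin of 532 against 535 at the closest. The means were 586 ± 72.8 and 489 ± 30.3 (difference -0.26, SE 0.086, unadjusted limma p 0.0134, adjusted p 0.540, exact permutation p 0.00794). Groups that do not overlap with the HFD lower were found in 2.01% of all tested genes and in 6.7% of equally abundant genes, and in either direction in 3.4% and 7.01%, against the 1 of 33 here, or 3.03%. In the deposited TPM, PRDX5 was 535 to 579 on control and 479 to 530 on the HFD, again with no overlap, and the difference was -0.15. Control rat 1 had the highest PRDX5, at 714, and without that rat the difference was -0.18. The unadjusted p of PRDX5 was under 0.05 in all 21 alternative analyses, with a highest value of 0.0345.

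The other peroxiredoxins overlapped between the diets. PRDX1 (ENSRNOG00000017194), a cytosolic enzyme and the most abundant peroxiredoxin, was at 540.2, 683, 540.7, 619 and 625 in control rats 1 to 5 and at 612, 693, 583, 605 and 568 in HFD-fed rats 1 to 5. The HFD values lay within the control range but for the highest, HFD-fed rat 2. The means were 602 ± 61.3 and 612 ± 48.5 (difference 0.03, SE 0.085). PRDX2, a cytosolic enzyme abundant in erythrocytes, had means of 364 ± 61.2 and 315 ± 12.5 (difference -0.19, SE 0.10), and control rat 1 was at 467 against 316 to 365 in the other control rats, and the difference was -0.10 without it. Summed haemoglobin transcripts, 4 genes, were 7777 in control rat 1, 3657 to 6913 in the other control rats and 3103 to 6387 in HFD-fed rats, and their part in the PRDX2 level was not tested. PRDX3, the mitochondrial enzyme, had means of 77.0 ± 3.22 and 70.5 ± 5.67 (difference -0.13, SE 0.067). PRDX4, the enzyme of the endoplasmic reticulum, had means of 256 ± 31.1 and 226 ± 38.7 (difference -0.19, SE 0.12). PRDX6, which also has phospholipase activity, had means of 241 ± 34.1 and 230.2 ± 23.8 (difference -0.06, SE 0.11).

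Thioredoxins and glutaredoxin are small disulfide reductases. TXN2 (ENSRNOG00000005614), the mitochondrial thioredoxin that regenerates PRDX3, was at 262, 238, 229.8, 250.0 and 239.9 in control rats 1 to 5 and at 219, 234, 228, 224 and 205 in HFD-fed rats 1 to 5. Only HFD-fed rat 2, at 234, lay above the lowest control rat, control rat 3. The means were 244 ± 12.3 and 222 ± 11.0 (difference -0.14, SE 0.059, unadjusted limma p 0.0446, adjusted p 0.571, exact permutation p 0.0159). The unadjusted p was under 0.05 in 8 of the 21 alternatives, and the highest was 0.702. In the deposited TPM, TXN2 was 196 to 259 on control and 215 to 247 on the HFD, and the groups overlapped.

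TXNL4A is named after thioredoxin for its fold and is a component of the spliceosome, with no known part in antioxidant defence. TXNL4A (ENSRNOG00000052004) was at 153, 96.3, 104, 111 and 113 in control rats 1 to 5 and at 90.5, 96.8, 87.0, 95.4 and 90.4 in HFD-fed rats 1 to 5. Only control rat 2 lay below an HFD-fed rat, at 96.3 against 96.8 in HFD-fed rat 2. The means were 115 ± 22.1 and 92.0 ± 3.99 (difference -0.31, SE 0.11, unadjusted limma p 0.0189, adjusted p 0.540, exact permutation p 0.0159). The unadjusted p was under 0.05 in all 21 alternatives, with a highest value of 0.0426, and the difference was -0.20 without control rat 1.

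The remaining thioredoxin and glutaredoxin genes had unadjusted limma p above 0.05. TXN1, the cytosolic thioredoxin, had means of 232 ± 13.1 and 230.1 ± 28.1 (difference -0.02, SE 0.088), and HFD-fed rats spread from 199.7 to 258 around a control range of 217 to 249. TXNIP, an arrestin-like protein that binds and inhibits thioredoxin, had means of 53.1 ± 8.84 and 61.9 ± 10.3 (difference 0.22, SE 0.14, and 0.13 without control rat 3). TXNDC15 had means of 99.3 ± 7.02 and 90.4 ± 4.32 (difference -0.13, exact permutation p 0.0397), TXNL1 of 98.2 ± 6.59 and 95.2 ± 7.27, and the cytosolic glutaredoxin GLRX of 55.0 ± 5.78 and 53.4 ± 4.42. The role as a whole had a ratio of 0.943 of HFD to control in its summed rescaled TPM, and of 1.01 with TPM as deposited.

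**Figure D3:**
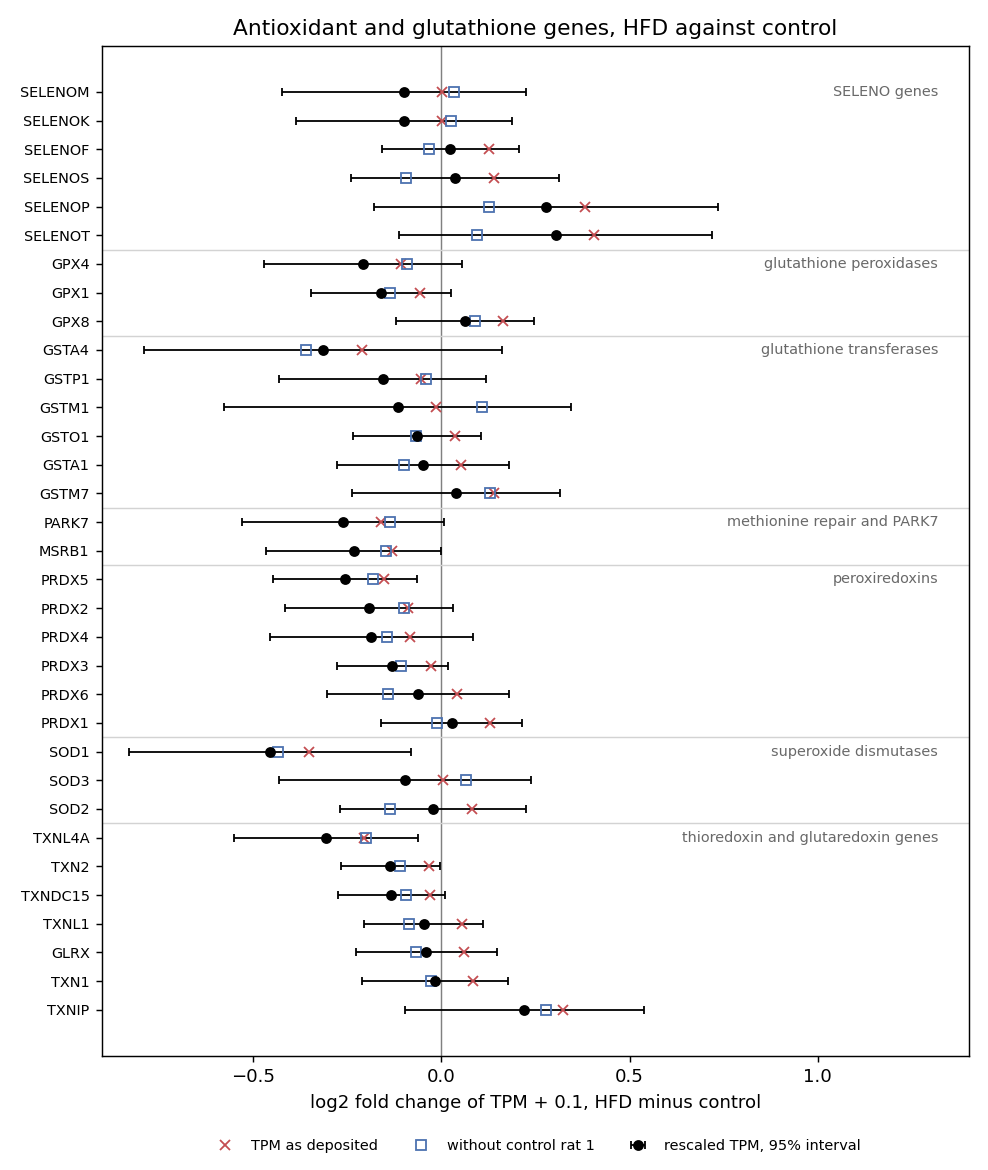
Log2 fold change, HFD minus control, of each of the 33 genes with its 95% interval from limma, grouped by role, with crosses for TPM as deposited and open squares for the fit without control rat 1. The intervals of PRDX5, SOD1, TXN2 and TXNL4A lie below 0, and those of the other 29 genes include 0.

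Glutathione transferases were led by GSTA1, an alpha-class enzyme, at a level near that of SOD1. GSTA1 (ENSRNOG00000013484) was at 1076, 1449, 1319.8, 1086 and 1306 in control rats 1 to 5 and at 1173, 1368, 1278, 1095 and 1096 in HFD-fed rats 1 to 5. The 2 ranges nearly coincided, and the highest and lowest values were both on control. The means were 1247 ± 162 and 1202 ± 119 (difference -0.05, SE 0.10, unadjusted limma p 0.647, 95% interval -0.28 to 0.18). GSTA4, which conjugates 4-hydroxynonenal from lipid peroxidation, had means of 429 ± 152 and 337 ± 71.0 (difference -0.31, SE 0.21), and control rat 2 was at 687 against 315 to 440.0 in the other control rats. The GSTA4 difference was -0.13 without control rat 2 and -0.21 without HFD-fed rat 5. GSTP1, the pi-class enzyme, had means of 238 ± 49.8 and 211 ± 14.8 (difference -0.16). Control rat 1 had GSTP1 at 321 against 189 to 232 in the other control rats, and without it the difference was -0.04, while without control rat 3 it was -0.23. GSTM1 and GSTM7, of the mu class, had means of 133 ± 56.8 and 116 ± 11.4 and of 80.4 ± 12.8 and 82.6 ± 12.5. GSTM1 stood at 234 in control rat 1 and at 98.3 to 110.4 in the other control rats, and without control rat 1 its difference changed from -0.12 to 0.11. GSTO1, the omega-class enzyme, had means of 85.9 ± 7.24 and 82.1 ± 5.91. The alpha-class pair made up 65.9% to 80.7% of the summed transferase transcript on control and 73.2% to 79.4% on the HFD. Transferases of 1 class are close copies of one another that may share reads in the quantification, so the split of reads between them is uncertain.

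The summed level of the 6 SELENO genes had a ratio of HFD to control of 1.02, and of 1.08 with TPM as deposited. SELENOF, a selenoprotein of the endoplasmic reticulum that takes part in glycoprotein folding, was the most abundant. SELENOF (ENSRNOG00000055257) was at 204, 258, 241, 248 and 246 in control rats 1 to 5 and at 234, 276, 242, 244 and 220.2 in HFD-fed rats 1 to 5, with means of 239 ± 21.0 and 243 ± 20.5 (difference 0.02, SE 0.082). SELENOP, the secreted protein that carries selenium between tissues, had means of 88.5 ± 32.6 and 103 ± 11.7 (difference 0.28, SE 0.21). Control rat 2 had SELENOP at 142, above all others, and without it the difference was 0.47 with an unadjusted limma p of 0.00922. Control rat 1 had the lowest SELENOP of all rats, at 55.4, and without it the difference was 0.13 with an unadjusted limma p of 0.473. SELENOT, a thioredoxin-fold protein of the endoplasmic reticulum, was at 39.4 in control rat 1, 77.7 to 87.5 in the other control rats and 86.7 to 87.5 in HFD-fed rats. The 5 HFD values had an SD of 0.311, and 4 of the 5 control rats lay below every HFD-fed rat. The difference was 0.30 (SE 0.19, exact permutation p 0.0476) and was 0.09 without control rat 1. SELENOS had means of 124 ± 22.0 and 125 ± 5.91, SELENOK of 162 ± 36.7 and 149 ± 11.9, and SELENOM of 50.2 ± 12.6 and 46.0 ± 4.38, and without control rat 1 the differences of both SELENOK and SELENOM changed from -0.10 to 0.03.

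PARK7 (DJ-1), a redox-sensitive protein, and MSRB1, the selenoprotein that repairs methionine sulfoxide, both had lower means on the HFD without passing the test. PARK7 (ENSRNOG00000018289) was at 455, 295, 297, 317 and 277 in control rats 1 to 5 and at 251, 270.4, 285, 273 and 268 in HFD-fed rats 1 to 5. Control rat 5 was the only control rat within the HFD range, and control rat 1 was the highest of all. The means were 328 ± 72.2 and 269 ± 12.1 (difference -0.26, SE 0.12, unadjusted limma p 0.0553, adjusted p 0.573, exact permutation p 0.0159). Without control rat 1 the PARK7 difference was -0.14, with an unadjusted limma p of 0.0256. MSRB1 had means of 57.9 ± 8.76 and 49.0 ± 4.62 (difference -0.23, SE 0.11, unadjusted limma p 0.0501), and control rat 1 was again the highest, at 72.8, and the difference was -0.15 without it.

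The rats differed among themselves in the whole set. Control rat 1 had the highest value of the 10 rats in 15 of the 33 genes and the lowest in 9, while HFD-fed rat 2 was highest in 6 and HFD-fed rat 5 lowest in 9. The median coefficient of variation of the 33 genes was 15.1% on control and 8.04% on the HFD, and 6.48% on control without control rat 1. In equally abundant genes the medians were 13.1% on control and 7.10% on the HFD. Without control rat 1, 24 of the 33 differences were below 0 with a median of -0.09, and 5 genes had an unadjusted p under 0.05, all with lower means on the HFD. The background without that rat was 6.28% of all tested and 16.7% of equally abundant genes lower at that p, and 5.51% and 2.18% higher.

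**Figure D4:**
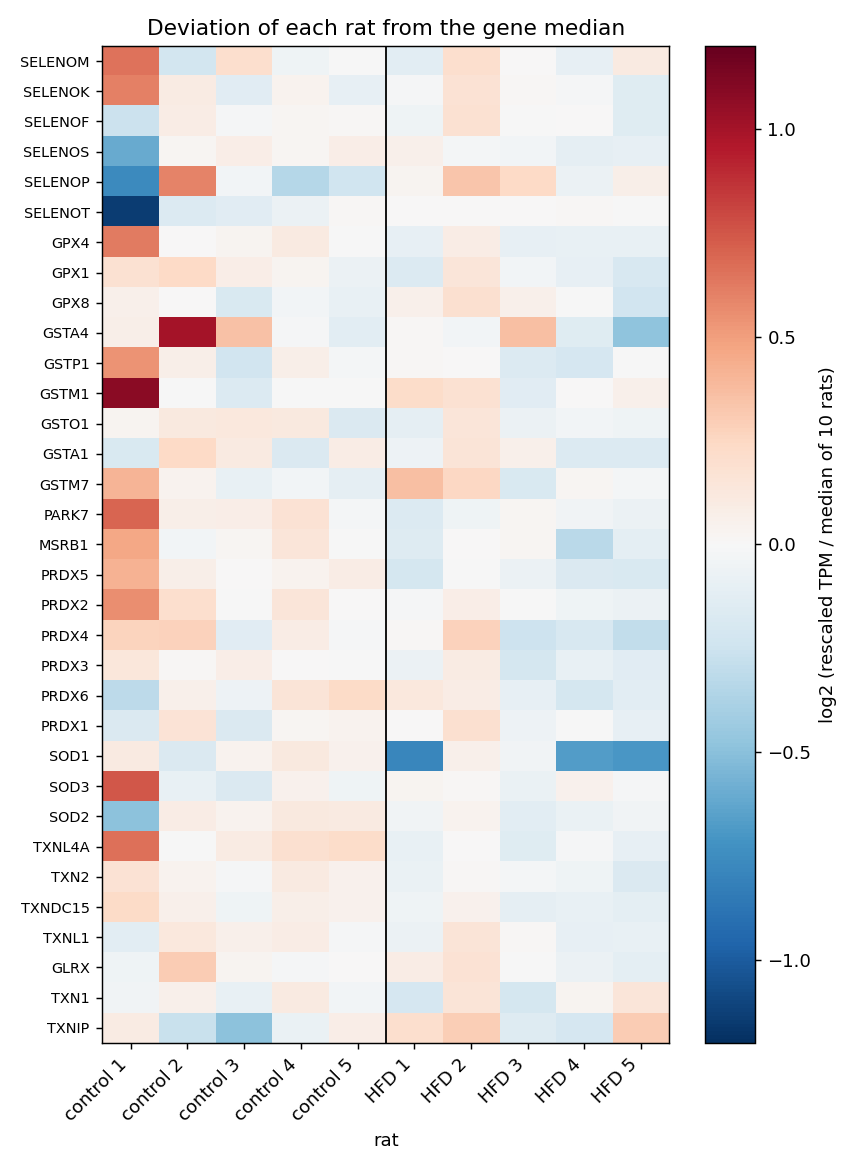
Log2 difference of each gene in each rat from the gene's median over the 10 rats, with the genes in rows by role and the rats in columns. Control rat 1 has strong colours in both directions, with SELENOT low and GSTM1 high, and SOD1 is low in HFD-fed rats 1, 4 and 5.

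Promoters were searched for the core of the antioxidant response element, the element bound by the stress factor NRF2, as TGACNNNGC on either strand. RefSeq windows of 250 bases before to 50 after the start (GRCr8, a later build than the Rnor_6.0 of the expression files, matched by symbol) were found for 29 of the 33 genes, and GPX8, PRDX6, SOD3 and TXNIP had none. Symbols of glutathione transferases have changed between annotations (GSTA1 is also listed as an older name of Gsta2), so a window of these genes may belong to another gene than the one measured. The letters were present in 8 of the 29, or 27.6% (GSTA1, GSTM7, GSTP1, PRDX1, PRDX4, PRDX5, SELENOK and SOD2), and in 13.1% of all 27457 genes with a window. The stretches below, with the match in capitals, are those of PRDX5, whose groups did not overlap, and of GSTP1, PRDX1 and SELENOK, whose groups did. PRDX5 lies at chr1:213532020-213532049 on the minus strand, GSTP1 at chr1:210769743-210769781 on the minus strand, PRDX1 at chr5:135383756-135383794 on the plus strand and SELENOK at chr16:5158459-5158532 on the plus strand, each printed 5′ to 3′ in the direction of the gene, with reverse matches in PRDX5 and PRDX1.
PRDX5: ctttgtacccacctcctgtggGCAGAGTCA
GSTP1: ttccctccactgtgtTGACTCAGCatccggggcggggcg
PRDX1: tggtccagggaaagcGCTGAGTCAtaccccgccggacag
SELENOK: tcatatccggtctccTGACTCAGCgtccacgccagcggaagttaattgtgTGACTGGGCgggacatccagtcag

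The PRDX5 match covers the start itself, from 1 base before it, while the GSTP1 match begins 61, the PRDX1 match 135 and the SELENOK matches 127 and 92 bases before the start. The diet difference ranged from -0.26 to 0.04 with a median of -0.07 in the 8 genes that hold the letters, and from -0.45 to 0.30 with a median of -0.13 in the 21 that do not. An unadjusted p under 0.05 was found in 1 of the 8 and 3 of the 21, against 8.62% of all tested and 14.2% of equally abundant genes. A match is a run of letters in this window and not a binding site.

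Genes of neighbouring redox pathways were counted in the same way. In a list of 25 other redox and detoxification genes, 0 had an adjusted p under 0.05, 4 had an unadjusted p under 0.05 with lower and 1 with higher means on the HFD, and the median difference was -0.10. The background is 4.84% of all tested and 13.0% of equally abundant genes lower, and 3.78% and 1.19% higher. MT3, a metal-binding metallothionein, had means of 419 ± 147 and 283 ± 49.2 (difference -0.52), with control rat 1 at 674, and the difference was -0.34 without that rat. AKR1A1, an aldehyde reductase, had means of 612 ± 38.5 and 542 ± 29.6 (difference -0.18). IDH2, the mitochondrial isocitrate dehydrogenase that supplies NADPH, had means of 341 ± 23.3 and 300.5 ± 12.9 (difference -0.18). SQSTM1, an autophagy adaptor, had means of 209 ± 21.7 and 183 ± 12.5 (difference -0.19), and leaving out single rats raised its unadjusted limma p above 0.05 for 7 of the 10 rats, with a highest value of 0.109. The same happened to MT3 without HFD-fed rat 4 (p of 0.0588) and to AKR1A1 without control rat 2 (p of 0.0532) in limma. ME1, the cytosolic malic enzyme that also supplies NADPH, was the gene with the higher mean, at 44.0 to 50.7 on control and 51.5 to 57.9 on the HFD, and its groups did not overlap (difference 0.21, unadjusted limma p 0.006, exact permutation p 0.00794). Groups not overlapping with the HFD higher were found in 1.39% of all tested genes and 0.312% of equally abundant ones. Of 43 further pathway genes, GLRX2 alone could be paired with an identifier, with means of 56.8 ± 6.14 and 54.4 ± 3.62.

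Other cell types were measured beside these genes. Of the 10 epithelial markers, 7 had a difference above 0 and 3 below 0, namely TTR (-0.10), FOLR1 (-0.16) and AQP1 (-0.05). KL and HTR2C had an unadjusted p under 0.05 with higher means on the HFD, and no marker had one with a lower mean. The means were 375 ± 59.0 and 448 ± 17.3 for KL and 397 ± 22.0 and 458 ± 41.0 for HTR2C. At that p, 3.78% of all tested genes and 1.19% of equally abundant genes were higher. The KL groups did not overlap (272 to 414 on control and 420.4 to 463 on the HFD), and its difference was 0.27, and 0.16 without control rat 1. Such a separation with the HFD higher was found in 1.39% of all tested genes and 0.312% of equally abundant ones. The unadjusted limma p of KL rose above 0.05 when HFD-fed rat 2, 3, 4 or 5 was left out, with a highest value of 0.0612. The 3 macrophage markers summed to 475 to 708 on control and 524 to 720.0 on the HFD. The 3 stromal markers summed to 802 to 923 and 762 to 864, the 2 mural markers to 178 to 194 and 196 to 245, and the endothelial marker PLVAP stood at 53.8 to 97.2 and 51.0 to 67.2. The stromal genes went different ways, with differences of 0.30 for DCN, -0.19 for SPARC and -0.12 for IGFBP7. The mural sum did not overlap between the diets, while RGS5 and MYL9, its 2 genes, each did. No share of other sums was counted beside it, so this is no result about mural cells. The part of cell composition in the antioxidant transcripts was not tested.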

How the data were processed

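The choroid plexus of 10 rats was sequenced as paired-end reads, 1 library per rat. The authors aligned reads to Rnor_6.0 with STAR (2.7.2a in the submitters' processing notes, another release in the methods) and quantified them with RSEM 1.3.3. TPM and FPKM, both rounded, were deposited for every gene. Within a rat the deposited FPKM are TPM times a constant, and they served only for the mean effective transcript length. Depth cannot be read from TPM, so no counting error is given. Raw counts, on which the study ran DESeq2, were not used here.

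Each rat's divisor was the median of its ratios to the 10-rat mean TPM over 12037 genes, with divisors centred on a geometric mean of 1. The 12198 genes whose rescaled TPM averaged at least 1 were tested as log2(rescaled TPM + 0.1) in limma 3.58.1 (R 4.3.3; lmFit, then eBayes with trend), with diet as the only term and Benjamini-Hochberg adjustment. Single genes also had an exact two-sided permutation test. The fit was checked on simulated data with normal errors at each gene's own SD, in which 200 genes were changed by a known amount. At an adjusted p under 0.05 it recovered 0% of log2 changes of 0.3, 72.5% of 1 and 98% of 2. An adjusted p above 0.05 therefore does not exclude a change of 0.3. Tables and plots were made with python 3.11.15 (pandas 2.3.3, numpy 2.4.6, matplotlib 3.10.9).

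Symbols came from the study's gene tables, without 7 symbols held by more than 1 identifier, none of them among the 33 genes. All 33 are named. Values in every rat are given for those with an unadjusted p under 0.05, those whose groups do not overlap and the most abundant of each role. Among the other redox genes, those with an unadjusted p under 0.05 are named. The 33 genes and all lists were chosen with earlier results of these data known. Deviations of same-numbered rats correlated at -0.04 to 0.12, and the labels link no rats across the diets, so no pairing was assumed. Alternatives changed the scaling, pseudocount, filter, weights, variance moderation, block and rats.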

Additional observations from a re-analysis of the deposited data

Results flagged for a closer look

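Each group of 5 was searched for 1 rat set off from the rest, by Dixon's test: the distance between that rat and its nearest neighbour, as a share of the whole range, had to be above 0.71. Of 80 groups, the genes and role sums on each diet, 18 held such a rat, where chance gives about 1 in 20, or 4. In 13 of the 18 the rat was control rat 1.

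On control, control rat 1 had the highest value for GPX4 (2072 against 1347 to 1454, 0.852 of the range), GSTM1 (234 against 98.3 to 110.4, 0.911), GSTM7 (103 against 71.8 to 79.7, 0.744), PARK7 (455 against 277 to 317, 0.776), PRDX5 (714 against 535 to 568, 0.816), SELENOK (225 against 135 to 159, 0.738), SOD3 (483 against 256 to 299, 0.81) and TXNL4A (153 against 96.3 to 113, 0.714). The same rat had the lowest value for SELENOS (84.7 against 131 to 136, 0.898), SELENOT (39.4 against 77.7 to 87.5, 0.796) and SOD2 (89.2 against 128 to 135, 0.851). It was also the highest for the summed glutathione peroxidases (3009 against 2142 to 2309, 0.807) and for MSRB1 and PARK7 summed (528 against 329.6 to 375, 0.768).

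Control rat 2 had the highest GLRX (65.2 against 50.8 to 54.0, 0.779) and the lowest SOD1 (1100.2 against 1276 to 1343, 0.723) on control. On the HFD, rat 2 had the highest GPX4 (1438 against 1259 to 1269.7, 0.939), GSTO1 (92.3 against 77.2 to 81.4, 0.723) and summed glutathione peroxidases (2370.1 against 1999.9 to 2090.3, 0.756). The SOD1 values of HFD-fed rats, 3 low and 2 high, did not meet this limit, which looks for 1 rat at a time.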

How the results depend on the processing

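In all 21 alternatives 0 of the 33 genes had an adjusted p under 0.05 with limma. The PRDX5 groups also did not overlap with TPM as deposited or with upper-quartile rescaling. Leaving out a rat cannot make separate groups overlap, so those fits say nothing more about PRDX5 overlap. Direction was kept in all 21 alternatives by 18 of the 33 genes and not by the other 15. The number of reads is unknown, so its part in the errors is too. Seeing the data led to 2 additions, the share called among equally abundant genes and the fit to TPM as deposited that leaves out control rat 1.

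Of the 33, 4 were lower at an unadjusted p under 0.05 in the report and 10 with array weights. With 1 rat left out, 2 (without HFD-fed rat 1, 4 or 5) to 9 (without HFD-fed rat 2) were lower, with 7 without control rat 5. The share of all tested genes lower with 1 rat left out was counted only for control rat 1. The counts without another rat have no such share beside them and are no result about the 33 genes. The number higher, 0 in the report, was 0 to 1 (SELENOP, without control rat 2). The number whose groups do not overlap was 1 to 5 (5 without HFD-fed rat 2, 3 without control rat 5, and 2 without control rat 2 or 3 or HFD-fed rat 3). Leaving out a rat can only keep or raise that number, among the 33 and among all genes. The share of all tested genes that do not overlap was counted only with all 10 rats. Of all tested genes, 1051 had an unadjusted p under 0.05, 623 with TPM as deposited, 622 with a mean of at least 10 (fewer genes tested), 1877 with array weights and 796 to 1438 with 1 rat left out. The median difference of the 33 was 0.0032 with TPM as deposited and -0.14 to -0.078 with 1 rat left out. When the replicate number entered as a block, 4 genes were lower (SOD1, PRDX4, PRDX5 and TXNL4A), 0 were higher, and 1137 tested genes had an unadjusted p under 0.05. The rats share only a number, with correlations of 0.12, -0.04, 0.01, 0.06 and 0.11 for numbers 1 to 5.

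Some differences changed sign. With TPM as deposited they were GLRX 0.062, GSTA1 0.053, GSTO1 0.038, PRDX6 0.041, SELENOK 0.0032, SELENOM 0.0029, SOD2 0.081, SOD3 0.0054, TXN1 0.085 and TXNL1 0.056, and with upper-quartile rescaling SOD2 0.0079 and TXN1 0.011. With array weights they were GSTM1 0.078, PRDX1 -0.016, SELENOF -0.038, SELENOK 0.0041, SELENOM 0.0037, SELENOS -0.076 and SOD3 0.025. Without control rat 1 in the deposited TPM they were GSTM1 0.12, SELENOF -0.022, SELENOK 0.038, SELENOM 0.046, SELENOS -0.083 and SOD3 0.076. With 1 rat left out, the ranges of those that changed sign were GLRX -0.080 to 0.022, GSTA1 -0.100 to 0.0076, GSTM1 -0.20 to 0.11, GSTM7 -0.029 to 0.13, PRDX1 -0.018 to 0.075, SELENOF -0.033 to 0.059, SELENOK -0.16 to 0.027, SELENOM -0.18 to 0.035, SELENOS -0.094 to 0.077, SOD2 -0.14 to 0.015, SOD3 -0.16 to 0.065 and TXN1 -0.061 to 0.032. The cause was not tested in any of these.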
